A study of Rattus norvegicus with 24 samples.

Results

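The lungs of Fischer-344 rats that inhaled hexanal at 1000 ppm were compared with the lungs of rats that breathed filtered clean air. Hexanal is a volatile straight-chain aldehyde. The members were the 6 arrays titled 1000 ppm (the T2 group) and the 6 clean air arrays, 12 of the 24 arrays of the series. The other 12 arrays came from rats given 600 or 1500 ppm. Rats of both sexes, 7 to 8 weeks old, were exposed for 4 h per day on 5 days per week over 5 weeks, and each array held the lung RNA of 1 numbered sample, called a rat below. The labels do not say that the numbers are separate animals, so p-values measure the spread between these samples. Both groups therefore shared strain, age and schedule, and each held 3 males (clean air rats 1, 2 and 3; 1000 ppm rats 11, 12 and 13) and 3 females (clean air rats 21, 22 and 23; 1000 ppm rats 31, 32 and 33). The titles give the doses in ppm and the exposure protocol gives the same figures in mg/m3, so the dose scale is not settled.

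Slide and group were not balanced. Slide 1 held the clean air males and 1000 ppm males 11 and 12, slide 2 held the clean air females and 1000 ppm male 13, and slide 3 held the 1000 ppm females. Females of the 2 groups never shared a slide, so in females alone exposure and slide cannot be told apart without the arrays of the other doses. The comparison of 3 clean air males with 2 exposed males on slide 1 was the only one within 1 sex and 1 slide. The 75th percentile of intensity was 932.2 ± 254 in clean air and 967.2 ± 193.4 at 1000 ppm (SD, n = 6 each, exact permutation test, two-sided, p = 0.7338, adjusted p = 0.7338). The number of miRNAs above background was 273.8 ± 22.67 and 267.8 ± 21.24 (exact permutation p = 0.6515, adjusted p = 0.7338, smallest p this design allows 0.002165). The number of arrays limits the precision of each value below.

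miRNAs are short RNAs that guide Argonaute proteins to messenger RNAs, mostly through the seed, bases 2 to 8 of the mature strand, and lower the output of the messages they pair with. Many are made mainly by 1 cell type, so that their level in whole lung follows that cell type as well as its regulation. In bulk lung RNA a change in the number of such cells and a change of RNA per cell cannot be told apart. The mature sequences of the miRNAs with the smallest p-values at 1000 ppm are given first, from RefSeq (assembly GRCr8), in lower case with the seed in capitals. Of the 283 miRNAs tested, 249 were matched to a sequence.

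Of the 12 higher miRNAs with the smallest p-values, 5 were of the miR-34 and miR-449 family, which is abundant in multiciliated epithelial cells. They are shown with miR-449c-5p and miR-34a-5p, which were not among the 12, for the seeds they share. The 5p members share the seed GGCAGUG and the 3p arms of miR-34b and miR-34c share AUCACUA:
miR-449a-5p: uGGCAGUGuauuguuagcuggu
miR-449c-5p: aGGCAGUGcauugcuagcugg
miR-34a-5p: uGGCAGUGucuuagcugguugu
miR-34b-5p: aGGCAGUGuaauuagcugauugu
miR-34c-5p: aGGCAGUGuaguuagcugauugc
miR-34b-3p: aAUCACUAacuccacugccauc
miR-34c-3p: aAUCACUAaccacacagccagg
The genes for miR-34b and miR-34c lie within 579 bases of each other on chromosome 8 (chr8:60306101-60306679, minus strand), and those for miR-449a and miR-449c within 1553 bases on chromosome 2 (chr2:46402394-46403946, plus strand).

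The largest fold differences were in striated muscle miRNAs. miR-133a-3p and miR-133b-3p share the seed UUGGUCC and the others have seeds of their own:
miR-1-3p: uGGAAUGUaaagaaguguguau
miR-133a-3p: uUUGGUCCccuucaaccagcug
miR-133b-3p: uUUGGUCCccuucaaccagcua
miR-499-5p: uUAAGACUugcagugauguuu
miR-133a-3p and miR-133b-3p are nearly identical, and signal shared between their probes was not tested. The genes of miR-1-3p and miR-133a-3p lie within 2475 bases of each other on chromosome 18 (chr18:2157886-2160360, minus strand).

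Of the 12 lower miRNAs with the smallest p-values, 11 had a sequence. G made up 18.2 to 61.9% of their bases with a median of 45.5%, beside a median of 23.8% over the 249 miRNAs with a sequence and 21% over the 12 higher miRNAs with the smallest p-values. They are shown for their G content, apart from miR-547-3p and miR-3585-5p, which also belong to the 12 and are the lowest in G, and follow with the X-linked miRNAs:
miR-134-5p: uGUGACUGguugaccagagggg
miR-370-3p: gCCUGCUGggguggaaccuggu
miR-211-3p: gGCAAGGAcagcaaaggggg
miR-1224: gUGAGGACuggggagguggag
miR-188-5p: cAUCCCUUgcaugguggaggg
miR-483-5p: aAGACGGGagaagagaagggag
miR-139-3p: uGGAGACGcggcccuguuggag
miR-6215: uUUAGGGUugcagagccagg
miR-3564: uGGGAAAUgcaaagagggaag
The composition is a description of these sequences and its part in the differences was not tested.

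The miRNAs called in males came from 1 stretch of the X chromosome, 5341 bases long (chrX:151706773-151712113, minus strand). G made up 18.2 to 22.7% of their bases:
miR-201-5p: cACUCAGUaaggcauuguuc
miR-3585-5p: uUCACAAGaaggugucuuucau
miR-547-3p: aUUGGUACuucuuuaagugaga

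Levels below are scaled intensities, the background-subtracted signal after each array was brought to a common 75th percentile, with a floor of 11.31, and differences are on the log2 scale. No miRNA passed the adjusted threshold of 0.05 in the comparison of 6 exposed with 6 clean air lungs (limma, 0 of 283, 0%). At an unadjusted p under 0.05 there were 17 miRNAs (6.01%), 7 higher (2.47%) and 10 lower (3.53%) at 1000 ppm. The smallest adjusted p was 0.2324, shared by miR-449a-5p and miR-134-5p. Differences on the log2 scale ran from -0.75 to 1.81 with a median of -0.01 (124 miRNAs higher, 43.8%, and 159 lower, 56.2%) and a median SE of 0.10. A difference over 1.5-fold was measured for 6 higher miRNAs (2.12%): miR-1-3p, miR-133a-3p, miR-133b-3p, miR-449a-5p, miR-3099 and miR-3588. It was measured for 2 lower ones (0.707%), miR-125a-3p and miR-1224. In no miRNA were all exposed lungs above or below all clean air lungs (0% in each direction). None of the differences described for 6 against 6 lungs is therefore a call, and they are given as measured sizes with their errors.

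**Figure D1:**
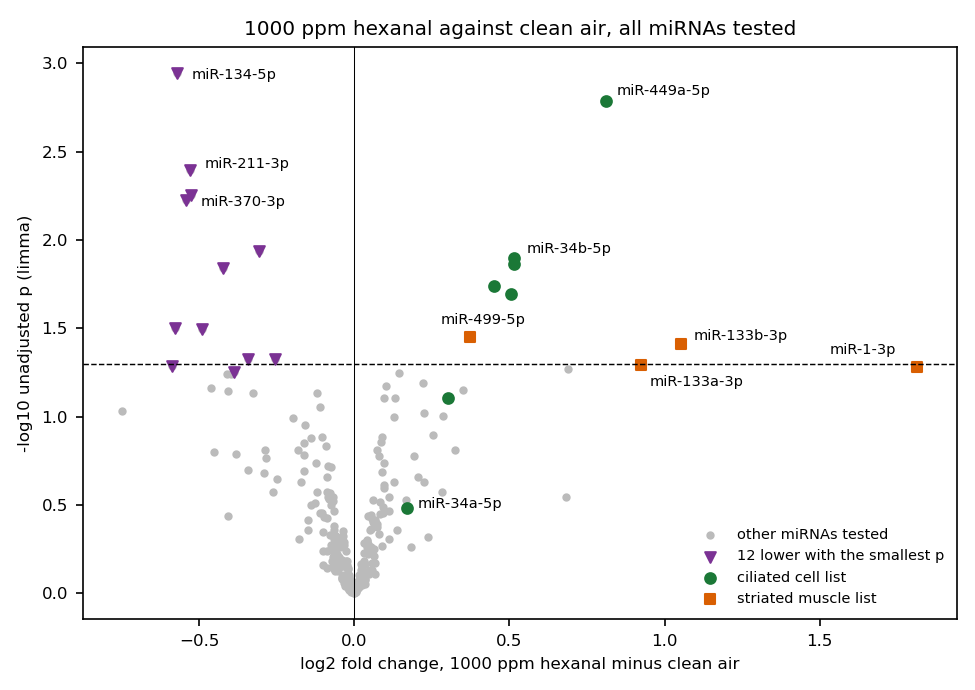
Each point is 1 of 283 miRNAs, with the log2 fold change of 1000 ppm hexanal over clean air on the x axis and -log10 of the unadjusted limma p on the y axis; the dashed line marks the unadjusted threshold of 0.05. The members of the ciliated cell list (circles) lie right of 0 (with normexp, 6 of 7 do). Those of the striated muscle list (squares) reach 1.81, and no point passed the adjusted threshold.

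All 7 members of the ciliated cell list were higher at 1000 ppm (6 of 7 with normexp, where miR-449c-5p was at -0.09), beside 43.8% of all miRNAs. Of the 7, 5 had an unadjusted p under 0.05 (background for higher miRNAs 2.47%) and none passed the adjusted threshold. The neighbouring miR-34b and miR-34c genes gave 4 of these 5. miR-34a-3p was tested but was not on the list, and it did not differ over 1.5-fold. That does not set it apart from the list, since of the 7 members only miR-449a-5p did. The list median log2 difference was 0.51, beside -0.01 over all 283 miRNAs. With normexp it was 0.20, beside -0.12 over all miRNAs. Normexp is a model-based background correction, run here on median spot brightness with an added offset of 50 and no floor. Such an offset compresses the log2 range of dim miRNAs on each array, and its part in the smaller list median was not tested. miR-449a-5p, which limits cell cycle genes and takes part in the building of motile cilia, had the smallest p of all higher miRNAs. Its scaled intensities in clean air lungs were 160, 72.6 and 109.6 in males 1, 2 and 3 and 101.7, 165.1 and 94.7 in females 21, 22 and 23. At 1000 ppm they were 165.3, 216.8 and 133.7 in males 11, 12 and 13 and 235.3, 207.7 and 251.4 in females 31, 32 and 33. Exposed male 13 lay within the clean air range, exposed male 11 was level with its top and the other exposed lungs were above it. The difference was 0.81 ± 0.23 on the log2 scale (SE, 1.75-fold, limma adjusted p = 0.2324, n = 6 each), with 0.64 in males and 0.98 in females. In the slide 1 males it was 0.80 ± 0.31 (limma adjusted p = 0.978). Fitted over all doses with a slide term, it was 0.63 (limma adjusted p = 0.496).

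The miR-34b and miR-34c arms, cut from neighbouring genes that p53 and the ciliogenesis program can induce, gave differences of like size. Scaled intensities of miR-34b-5p were 1538, 784.3, 1133, 1148, 1653 and 886.4 in clean air rats 1, 2, 3, 21, 22 and 23. They were 1181, 1438, 1693, 1888, 1678 and 2157 in 1000 ppm rats 11, 12, 13, 31, 32 and 33. Clean air rats 2 and 23 were the lowest and the 3 exposed females and male 13 the highest, with overlap between. The difference was 0.52 ± 0.19 for miR-34b-5p, 0.52 ± 0.19 for miR-34b-3p, 0.51 ± 0.20 for miR-34c-5p and 0.45 ± 0.18 for miR-34c-3p (log2, SE, limma adjusted p from 0.4534 to 0.5214). The male differences of these arms ran from 0.16 to 0.37 and the female ones from 0.65 to 0.87.

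The other members of the seed family differed less. miR-449c-5p, from the same host gene as miR-449a, was above background in 3 of 6 clean air lungs and 6 of 6 exposed lungs and differed by 0.30 ± 0.16. miR-34a-5p, the p53-induced member expressed in many cell types, differed by 0.17 ± 0.17, with exposed male 11 at 1280 and the other exposed lungs between 1682 and 1798.

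Within slide 1, all 7 measured higher in the 2 exposed males than the 3 clean air males on average, with a median of 0.23 beside -0.04 over all miRNAs. Only miR-449a-5p of the 7 did not overlap there (background 5.65% higher). In females the median was 0.67, and in 4 of 7 members the groups did not overlap (background 17.7% higher). With slide as a block over all doses the list median was 0.28 and all 7 stayed above 0.

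**Figure D2:**
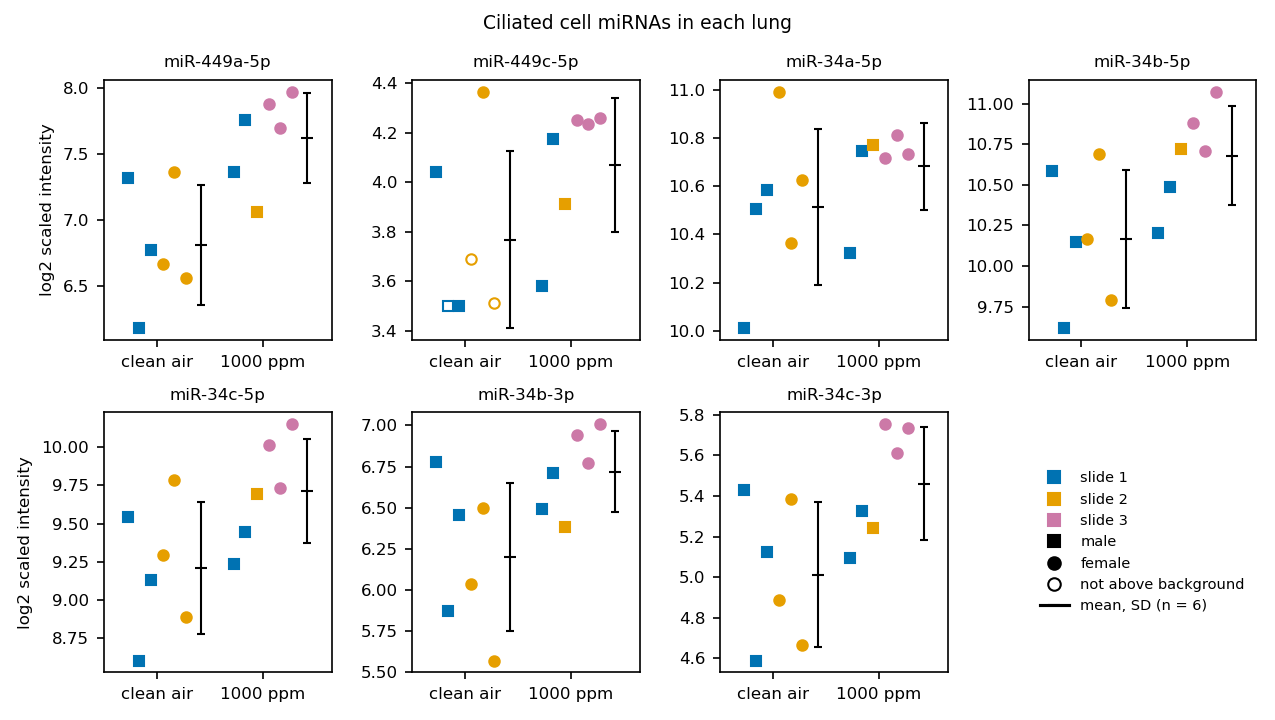
Log2 scaled intensity (y axis) of the 7 ciliated cell miRNAs in each clean air and 1000 ppm lung (x axis), coloured by slide, with squares for males, circles for females and open symbols where a miRNA was not above background; bars give the mean and SD (n = 6). The exposed females of slide 3 sit at or near the top of most panels and in every panel at least 1 exposed male lies within the clean air range.

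All 4 measured members of the striated muscle list were higher at 1000 ppm (3 of 4 with normexp), beside 43.8% of all miRNAs. Of the 4, 2 had an unadjusted p under 0.05 (background for higher miRNAs 2.47%). The list median log2 difference was 0.99 (0.43 with normexp), with wide spread between rats. miR-1-3p and the miR-133 pair are made in heart and skeletal muscle, and miR-499-5p comes from an intron of a slow and cardiac myosin heavy chain gene. miR-1-3p gave the largest fold difference of all 283 miRNAs. Its scaled intensities were 74.1, 22.0, 49.3 and 19.7 in clean air rats 1, 2, 3 and 21, and rats 22 and 23 were not above background. They were 39.7, 76.7, 190.6, 142.3, 13.9 and 336.8 in 1000 ppm rats 11, 12, 13, 31, 32 and 33. Rats 33, 13 and 31 were well above every clean air lung, rat 12 was level with the highest of them, and rat 32 was as low as the clean air females. The difference was 1.81 ± 0.88 (log2, SE, limma adjusted p = 0.6359), with only a bound for clean air rats 22 and 23. Its size changed with the floor and the background correction. It was 2.25 with a lower floor, 2.70 with total gene signal, 3.00 with the series table and 0.72 with normexp and its offset. It was 1.42 without rat 33 and 2.34 without rat 32.

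miR-133b-3p followed the same rats. Its scaled intensities were 276.9, 148.2, 205.4, 154.3, 145.2 and 129.3 in the clean air lungs and 196.9, 270.1, 538, 473.5, 157.8 and 910.2 in the exposed lungs, in the order above. Rats 33, 13 and 31 were again the highest. The difference was 1.05 ± 0.48 for miR-133b-3p and 0.92 ± 0.45 for miR-133a-3p (log2, SE, limma adjusted p = 0.6359 for both). miR-499-5p differed by 0.37 ± 0.17 (limma adjusted p = 0.6359) and by -0.02 when the background was corrected with normexp.

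The remaining 4 members of the list were on the array and above background on 0 of the 24 arrays. They were miR-206-3p, which is made in skeletal muscle, miR-208a-3p and miR-208b-3p, which come from introns of cardiac myosin heavy chain genes, and miR-133a-5p. The other arm of the miR-208a hairpin, miR-208a-5p, was tested but was not on the list. It did not differ over 1.5-fold. The list median was 0.53 in males, 1.45 in females, 0.27 in the slide 1 males and 0.62 with slide as a block. The mean log2 level over the 4 members ran from 4.68 to 6.01 in clean air lungs and from 4.96 to 7.50 at 1000 ppm. The muscle content of the samples was not tested.

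**Figure D3:**
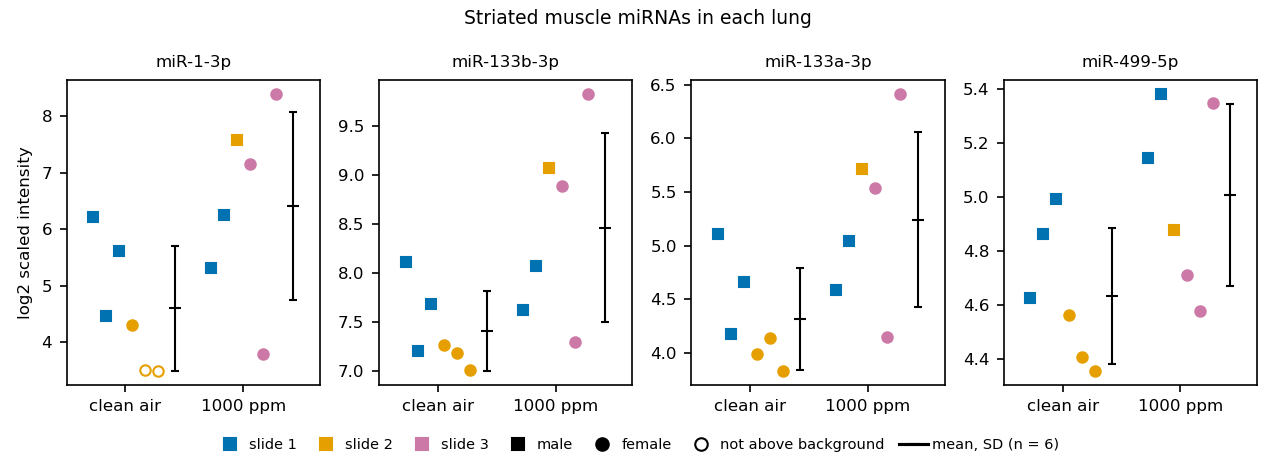
Log2 scaled intensity (y axis) of the 4 tested members of the striated muscle list, in each clean air and 1000 ppm lung (x axis). Colours, symbols and bars are as in the plot of ciliated cell miRNAs. Exposed rats 33, 13 and 31 stand above the clean air lungs for miR-1-3p and the miR-133 pair, while rat 32 lies among them.

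The lower miRNAs at 1000 ppm with the smallest p-values were a mixed group by origin. miR-134-5p and miR-370-3p come from the imprinted Dlk1-Dio3 cluster on chromosome 6, which is active in fetal tissues and brain. miR-211-3p comes from an intron of Trpm1, miR-483-5p from an intron of Igf2, and miR-139-3p from an intron of Pde2a. miR-1224 is made from a short intron without Drosha cutting. All were lower on average.

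miR-134-5p had the smallest p of all miRNAs. Its scaled intensities were 22.1, 18.6, 14.9, 16.0, 24.8 and 23.8 in clean air rats 1, 2, 3, 21, 22 and 23. They were 15.0, 16.9, 11.6, 12.5, 12.2 and 12.0 in 1000 ppm rats 11, 12, 13, 31, 32 and 33. Only slide 1 males 11 and 12 reached into the clean air range, and 4 of the 6 exposed lungs were above background. The difference was -0.57 ± 0.15 (log2, SE, limma adjusted p = 0.2324), with -0.35 in males, -0.79 in females and -0.20 in the slide 1 males.

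miR-370-3p was also lower in both sexes. It ran from 23.1 to 32.9 in clean air lungs and from 15.1 to 24.5 in exposed lungs. The difference was -0.54 ± 0.18 over both sexes, -0.43 in males, -0.65 in females and -0.29 in the slide 1 males (log2, limma adjusted p over both sexes 0.3366). On the list drawn up for this cluster, which may not hold all its miRNAs, 7 of 36 members were measured. Of the 7, 5 were lower, beside 56.2% of all miRNAs. An unadjusted p under 0.05 was found for 2 (background for lower miRNAs 3.53%), and the list median was -0.16. Keeping only probes above background on all arrays left 2 members with a median of 0.02. The third member named here, miR-487b-3p, was higher by 0.22 ± 0.11.

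Others of the group were lower mainly in females, whose groups lay on different slides. miR-211-3p was at 45.7, 66.8 and 50.8 in the clean air females and 29.8, 24.2 and 29.7 in the exposed females. In the slide 1 males it was at 36.6, 34.1 and 36.4 in clean air and 34.7 and 38.4 at 1000 ppm, and in exposed male 13 on slide 2 it was at 27.3. The female groups did not overlap (background 13.4% lower), whereas the slide 1 males did. The log2 difference was -0.53 ± 0.17 over both sexes (limma adjusted p = 0.3366), -0.95 in females (limma adjusted p = 0.0598, the smallest in females) and 0.03 in the slide 1 males.

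miR-1224 was likewise lower in the exposed females and not in the slide 1 males. It was at 1295, 2024 and 2115 in the clean air females, at 1055, 747.6 and 586.5 in the exposed females and at 853.7 in exposed male 13, which shared the slide of the clean air females. In the slide 1 males it was at 703.5, 956 and 1012 in clean air and 1122 and 739.4 at 1000 ppm. The log2 difference was -0.59 ± 0.29 over both sexes (limma adjusted p = 0.6359), -1.19 in females and 0.05 in the slide 1 males. The slide 1 males differed by 0.05 for miR-188-5p, 0.08 for miR-483-5p and -0.07 for miR-328a-5p, where the females differed by -1.09, -0.88 and -0.84.

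The remaining lower miRNAs with small p-values were close to the floor or differed little. miR-139-3p ran from 22.5 to 29.0 in clean air and from 19.1 to 25.4 at 1000 ppm, a difference of -0.26 ± 0.12. miR-6215 ran from 15.1 to 29.3 and from 13.6 to 21.2, a difference of -0.34 ± 0.16, with -0.57 in males and -0.11 in females. miR-3564 ran from 13.0 to 19.2 and was above background in 5 of 6 clean air lungs, against at most 13.0 and 4 of 6 at 1000 ppm, a difference of -0.39 ± 0.19. None of the 3 passed the adjusted threshold (limma adjusted p = 0.6359 for each).

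miR-125a-3p, the passenger arm of the miR-125a hairpin, was the lower miRNA with the greatest fold. Its scaled intensities were 73.9, 150.2 and 70.1 in clean air males and 61.3, 48.8 and 43.9 in exposed males, all below the clean air males. They were 150.3, 205.3 and 212.2 in clean air females and 126.9, 144 and 94.7 in exposed females, again without overlap (background 8.48% lower in males and 13.4% in females). The difference was -0.75 ± 0.43 (log2, SE, limma adjusted p = 0.7025), with -0.86 in males, -0.64 in females and -0.75 in the slide 1 males. Across both sexes the groups overlapped, since clean air males 1 and 3 lay below every exposed female.

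**Figure D4:**
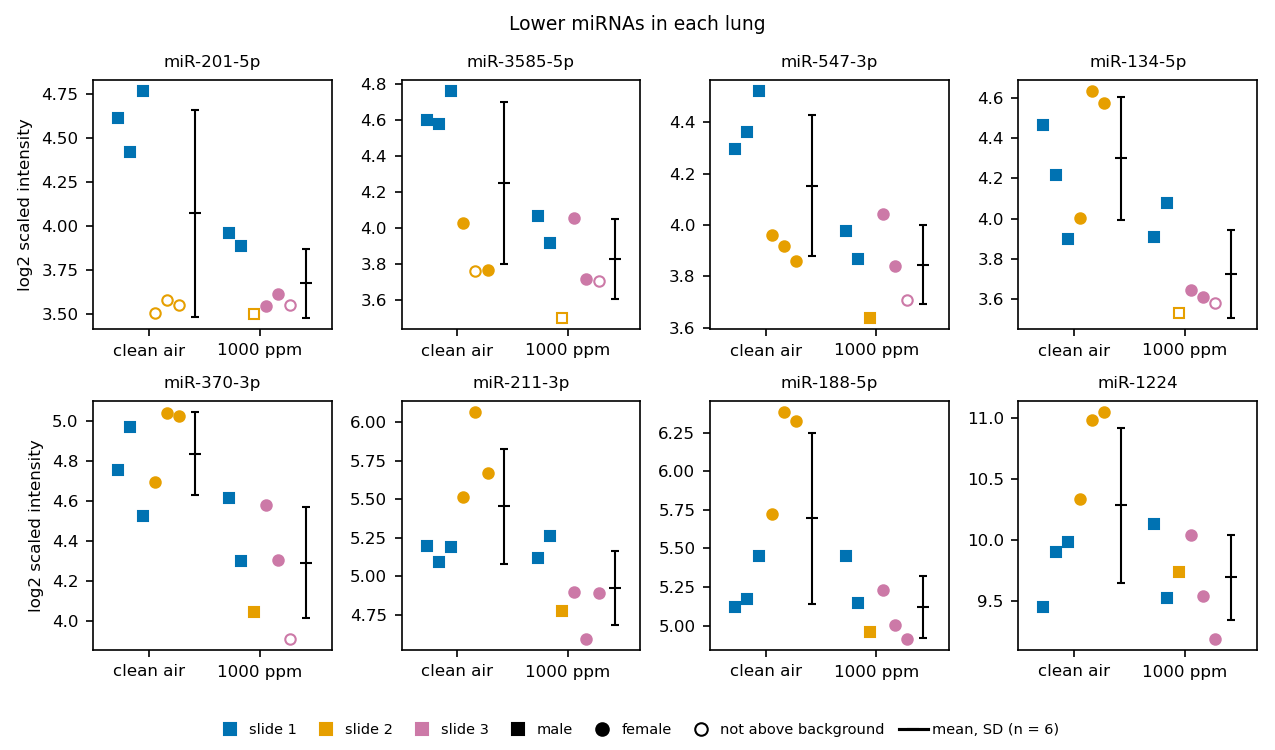
Log2 scaled intensity (y axis) of the 3 X-linked miRNAs called in males and of 5 further lower miRNAs, in each clean air and 1000 ppm lung (x axis); colours, symbols and bars as in the plot of ciliated cell miRNAs. The X-linked miRNAs are highest in the 3 clean air males, whereas miR-211-3p, miR-188-5p and miR-1224 are highest in the clean air females of slide 2.

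Within males, 3 of 283 miRNAs passed the adjusted threshold (1.06%), all lower at 1000 ppm, and 24 had an unadjusted p under 0.05 (8.48%), 1 higher (0.353%) and 23 lower (8.13%). The calls were miR-201-5p, miR-3585-5p and miR-547-3p, all from the X-linked stretch shown above. miR-201-5p was at 24.5, 21.4 and 27.1 in the clean air males and at 15.5, 14.8 and 11.3 in the exposed males, without overlap (background 8.48% lower). The log2 difference was -0.82 ± 0.13 (SE, limma adjusted p = 0.001042). In females it was at 11.4, 12.0 and 11.7 in clean air, not above background in any of the 3, and at 11.7, 12.2 and 11.7 at 1000 ppm. The SE pools the spread within all groups of dose and sex. The small spread of these females near the floor is therefore part of it.

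miR-3585-5p was at 24.3, 23.9 and 27.1 in clean air males and 16.8, 15.1 and 11.3 in exposed males. miR-547-3p was at 19.6, 20.6 and 22.9 and at 15.7, 14.6 and 12.5. The groups did not overlap for either. The log2 differences were -0.82 (limma adjusted p = 0.003944) and -0.57 (limma adjusted p = 0.01971), beside -0.03 and -0.05 in females. Clean air females were at 16.3, 13.6 and 13.6 for miR-3585-5p and at 15.6, 15.1 and 14.5 for miR-547-3p. That is close to the floor of 11.31, so a fall of the male size could not be measured in full in females. The opposite arm of the same hairpin, miR-547-5p, differed by 0.01 in males.

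These 3 calls rested on low signals and on few rats. Exposed male 13, on slide 2, was at the floor for miR-201-5p and miR-3585-5p, and in the slide 1 males alone the 3 differences were -0.68, -0.65 and -0.47 with no overlap (background 15.9% lower). No miRNA was called there (limma, 0 of 283, 0%, smallest adjusted p 0.867 with 5 residual degrees of freedom), and 13 had an unadjusted p under 0.05 (4.59%). With slide as a block, miR-201-5p (limma adjusted p = 0.01641) and miR-3585-5p (0.04602) passed and miR-547-3p did not (0.132). Without exposed male 13, clean air male 2 or clean air male 3, the adjusted p of miR-547-3p was 0.2053, 0.06482 and 0.1335, while the other 2 kept their calls, and without exposed male 12 there were 6 calls, these 3 among them. None of the 3 passed with a lower floor, total gene signal, the series table or normexp, where the adjusted p ran from 0.08927 to 0.9907 and every difference stayed below 0. miR-547-3p also failed with the percentile over all probes (limma adjusted p = 0.1596), no filter on dim probes (0.07867) and the brightest probe (0.09802). With quantile normalization both miR-547-3p (limma adjusted p = 0.2293) and miR-3585-5p (0.05108) failed. The log2 difference of miR-201-5p was -1.33 ± 0.32 with the lower floor, -1.45 ± 0.65 with total gene signal, -1.92 ± 0.96 with the series table and -0.34 ± 0.50 with normexp. miR-3585-5p and miR-547-3p moved the same way, to -1.31 and -1.07 with the series table and to -0.31 and -0.25 with normexp.

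Within females no miRNA passed the adjusted threshold (limma, 0 of 283, 0%), while 51 had an unadjusted p under 0.05 (18%), 31 higher (11%) and 20 lower (7.07%). With slide as a block over all doses that number was 9 (3.18%). The interaction of dose and sex passed for 2 miRNAs (limma interaction, 0.707%), miR-201-5p at -0.84 and miR-222-3p at -0.42 (adjusted p = 0.04334 for both), and 52 had an unadjusted p under 0.05 (18.4%). For miR-201-5p the clean air females were near the floor, so a fall in females could not be measured. Its interaction therefore cannot show whether the sexes responded differently. miR-222-3p, an endothelial and growth-linked miRNA, was at 228.2, 226.3 and 217.8 in clean air males, 193, 213.1 and 188.8 in exposed males, 168.6, 197 and 167.8 in clean air females and 210.3, 206.1 and 211.5 in exposed females. With slide as a block no interaction passed (0%), and 9 had an unadjusted p under 0.05 (3.18%).

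miR-3099 and miR-3588 were higher mainly in the exposed females. miR-3099 was at 12.3, 14.6 and 18.2 in clean air females and at 41.2, 47.2 and 26.2 in exposed females, against 11.3 to 20.7 in all males. miR-3588 was at 46.7, 53.1 and 96.4 in clean air females and 195.4, 188 and 122.2 in exposed females, and at 15.9 to 56.7 in the males. The differences over both sexes were 0.69 ± 0.34 and 0.68 ± 0.62, and with slide as a block they were 0.26 and -0.09. miR-3588 is annotated at the same bases as miR-125b-5p on the opposite strand (chr11:29732588-29732609), and its mature sequence is the exact reverse complement:
miR-3588: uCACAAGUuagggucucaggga
miR-125b-5p: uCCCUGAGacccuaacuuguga
miR-125b-5p, a brake on several cell death and differentiation genes, differed by 0.14 ± 0.07 over both sexes and by 0.32 in females (log2).

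The other lists of cell type and pathway miRNAs differed little. The 6 epithelial miR-200 members, which keep epithelial cells from a mesenchymal program, were all higher, by 0.04 to 0.10 (5 of 6 with normexp), beside 43.8% of all miRNAs. The 4 endothelial members had a median of -0.05 (0.01 with the series table), and miR-126a-3p, from an intron of Egfl7, was at 11065 to 13857 in clean air and 11706 to 12619 at 1000 ppm. In males the endothelial median was -0.22 and in females 0.18, and in 3 of 4 members the female groups did not overlap, exposed females being higher (background 17.7%). miR-221-3p, which shares its seed and gene cluster with miR-222-3p, was at 382.9, 378 and 385.3 in clean air females and 420.8, 401 and 444.8 in exposed females. In males it was at 533.4, 486.6 and 494.2 in clean air and 411.2, 506.6 and 351.7 at 1000 ppm.

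The 6 smooth muscle and fibroblast members had a median of 0.08 and the 4 leukocyte members of -0.05. miR-143-3p, a smooth muscle miRNA, ran from 5927 to 7197 in clean air and from 6634 to 7618 at 1000 ppm. miR-142-3p, which is made in blood-forming cells, ran from 1432 to 2371 and from 1397 to 2149. In both the groups overlapped.

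Of the 6 injury and NF-kB feedback members measured, 3 were higher and the median was -0.003 on the log2 scale. miR-146a-5p, which damps Toll-like receptor signalling, was at 515.3 to 784 in clean air and 464.6 to 639.3 at 1000 ppm and differed by -0.14 ± 0.14. Medians were 0.05 for miR-29, which restrains collagen genes, 0.02 for let-7, -0.03 for miR-30, -0.01 for miR-17-92 and -0.02 for the miR-183 cluster.

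The 4 red blood cell members had a median of 0.16, with -0.10 in males and 0.48 in females. miR-451-5p, which is cut by Argonaute in erythroid cells, was at 947.7, 1205 and 1087 in clean air females and 1646, 1748 and 2364 in exposed females. In males it was at 1793, 1761 and 2601 in clean air and 2047, 1814 and 1554 at 1000 ppm. Blood in the samples was not tested. Among miRNAs of brain, liver and pancreas, miR-124-3p, miR-9a-5p and miR-217-5p were above background on 0 arrays and miR-216a-5p on 4 of 24. miR-122-5p of liver differed by -0.41 ± 0.44, and miR-375-3p of endocrine cells by 0.35 ± 0.18. Over both sexes, no member of any of these 13 lists had an unadjusted p under 0.05 except the lower miRNAs of the Dlk1-Dio3 cluster. That statement covers 1000 ppm against clean air without a slide term. It does not cover the comparisons within each sex or the interaction of dose and sex.

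**Figure D5:**
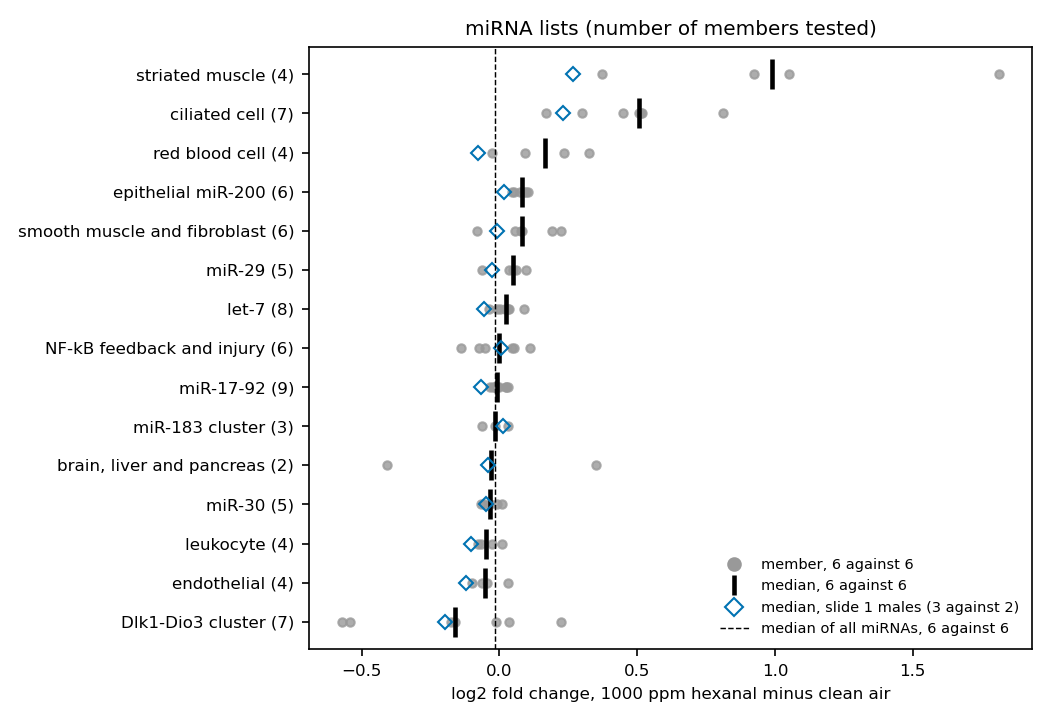
Log2 fold change of 1000 ppm over clean air (x axis) for the members of each list (grey points, number tested in brackets), with the list median for 6 against 6 lungs (bars), the median in the slide 1 males (diamonds) and the median of all miRNAs (dashed line). The muscle and ciliated cell lists have medians of 0.99 and 0.51, or 0.27 and 0.23 within slide 1, and the other lists lie between -0.16 and 0.16.

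The middle dose was also set against the other doses directly. The 600 ppm males lay on slide 1 and the 600 ppm females on slides 2 and 3. The 1500 ppm males lay on slide 2 and the 1500 ppm females on slide 3. The values below hold no slide term, so dose and slide are partly mixed in them. No miRNA passed against 600 ppm (limma, 0 of 283, 0%, 7 at an unadjusted p under 0.05, 2.47%) or against 1500 ppm (0 of 283, 0%, 16 unadjusted, 5.65%). The log2 difference from clean air for miR-449a-5p was 0.45 at 600 ppm, 0.81 at 1000 ppm and 0.29 at 1500 ppm, all against the same clean air lungs. Directly, 1000 ppm was above 600 ppm by 0.36 (limma adjusted p = 0.992) and above 1500 ppm by 0.53 (adjusted p = 0.5955). miR-34b-5p was at 0.19, 0.52 and 0.24, miR-1-3p at 0.72, 1.81 and 0.65, and miR-134-5p at -0.40, -0.57 and -0.51 in the same order. For miR-499-5p the values were 0.10, 0.37 and -0.15, with 1000 ppm above 1500 ppm by 0.52 (adjusted p = 0.5955), the smallest unadjusted p of that comparison.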

How the data were processed

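Lung RNA of 24 numbered samples was hybridised to 1-colour Agilent rat miRNA arrays (719 miRNAs, 1730 probes, 14380 spots), 1 array per sample. The authors deposited the scanner output of Feature Extraction 11.5.1.1, whose intensity values (gProcessedSignal) are background-subtracted and not scaled between arrays. The files name the rn4 build, and printed coordinates are those of RefSeq GRCr8. Slides came from the file headers.

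Outlier spots were left out. Each array was scaled to a common 75th percentile over the 394 probes above background on all arrays (scaled to 865.3), values under 11.31 were set to that floor (8.59% of spots kept), and log2 values of spots, then probes, were averaged. A miRNA was tested if above background on at least 6 arrays, which left 283. limma 3.58.1 in R 4.3.3 was fitted over all 24 arrays, with 1 mean per dose, or per dose and sex for the comparisons within sex. p-values were two-sided and adjusted by Benjamini-Hochberg over 283 miRNAs. A difference is 1000 ppm minus clean air. Slide, scaling, floor, filter, signal, background and single rats were varied. The code was tested on simulated data.

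Named miRNAs were the 12 higher and 12 lower with the smallest p, those over 1.5-fold, the measured muscle and ciliated cell members, the 2 members with the smallest p of each other list, and up to 5 called in each other comparison. Members and lists were chosen with earlier results of these data known.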

Additional observations from a re-analysis of the deposited data

Results flagged for a closer look

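In 5 of 112 groups of 6 values, 1 lung stood apart from the rest by Dixon's ratio of its gap to the group's range, where chance gives about 5.6. The log2 level of miR-34a-5p was lowest in exposed male 11 (ratio 0.804, at 10.32, beside 10.76 ± 0.04 in the other 5 exposed lungs). miR-29b-3p was highest in clean air female 22 (ratio 0.73) and miR-29c-5p lowest in clean air male 3 (ratio 0.725). Exposed female 33 was lowest for miR-182 (ratio 0.627) and highest for miR-19a-3p (ratio 0.636).

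The difference at 1000 ppm was lower in males than in females by -0.84 for miR-201-5p and by -0.42 for miR-222-3p on the log2 scale (limma interaction, adjusted p = 0.04334 for both). miR-201-5p was near the floor and not above background in any clean air female, so a fall in females could not be measured. Its interaction cannot show whether the sexes responded differently. Neither interaction passed with slide as a block (limma adjusted p = 0.596).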

How the results depend on the processing

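The 6 against 6 comparison gave 0 adjusted calls under all 26 alternatives, with 4 (normexp) to 30 (without rat 11) at an unadjusted p under 0.05. Comparisons with 600 ppm, 1500 ppm and within slide 1 also stayed at 0. Male calls numbered 1 with quantile normalization and 0 with a lower floor, total gene signal, the series table or normexp. They numbered 2 to 6 leaving out 1 rat (6 without rat 12). With only probes above background on all arrays there were 0, but that filter removed the X-linked miRNAs called in males, so they were not tested. It also took miR-201-5p out of the interaction. Female calls numbered 5 with the percentile over all probes, 4 with quantile normalization, 1 with only probes above background on all arrays, 3 with total gene signal, 3 with an intensity trend and robust variance, and 0 to 4 leaving out 1 rat (2 without rat 21, 3 without rat 22, 4 without rat 33). Interaction calls numbered 1 with the brightest probe, 0 to 6 leaving out 1 rat (6 without rat 12) and 0 with slide as a fixed or random block, a lower floor, no filter, total gene signal, the series table, normexp, quantile normalization, only probes above background on all arrays, or the all-probe percentile. miR-499-5p turned to -0.0196 and miR-222-3p to -0.0389 with normexp, which moved the median of all miRNAs to -0.12, and miR-222-3p ran from -0.0192 to 0.0696 leaving out 1 rat. miR-3588 turned to -0.0887 with slide as a fixed block. The difference in 75th percentile ran from -18.07 to 93.76 leaving out 1 rat, and that in miRNAs above background from -11.97 to 0.9667, or 0.8333 counting any spot. The causes were not tested. No paired analysis was possible because the groups share no replicate numbers. Signals near the floor bound what the X-linked miRNAs and miR-134-5p can show.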
